A study of Homo sapiens with 18 samples.

Results

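The genes described here are 40 components of the G1/S transition and of the DNA replication machinery, among 58735 genes in the deposited table. They were listed by symbol as parts of the pathway, with earlier results of these data known. Each symbol matched 1 identifier in the table, and all 40 were followed through all 18 libraries. Of the 40, 39 passed the filter on low counts. The gene of cyclin E1, CCNE1, did not, with 0 to 8 reads per library.

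Messenger RNA was sequenced from RPMI-8402, an established human cell line of T-cell acute lymphoblastic leukaemia, abbreviated T-ALL. The 6 groups of 3 libraries were PIK3R1 knockout (KO) cells given CB-103, KO cells given a gamma-secretase inhibitor (GSI), KO cells given the vehicle DMSO, and cells with a non-targeting control (NT) given CB-103, GSI or DMSO. Every group was treated for 24 h. The product of PIK3R1 regulates class I phosphoinositide 3-kinase. CB-103 blocks the NOTCH transcription complex, and a gamma-secretase inhibitor blocks the cleavage that releases the active part of the NOTCH receptor. These are unrelated compounds rather than analogs. The sources used here state neither dose, nor what the edit does to the protein. The labels do not say whether the KO cells were a clone or a pool, nor whether replicates were separate cultures, so the p-values measure only the spread between these libraries, which may be technical.

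A chromosome is copied in steps that each have their own proteins. In G1, cyclin E with its kinase CDK2 commits the cell to S phase, while ORC, CDC6 and CDT1 load the MCM2-7 ring onto origins. CDC45 and the GINS proteins then turn the ring into an active helicase, primase and the polymerases copy the strands behind the sliding clamp PCNA, and chromatin is rebuilt on the new DNA. Most of these genes are textbook targets of E2F factors, and proliferating T-ALL cells express them at high levels. In bulk RNA, fewer cells in S phase and less RNA per cell cannot be told apart.

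Because many of the members are known as E2F targets, their promoters are shown for the 3 members that fell most under CB-103 in NT cells and for 2 that rose, among those with an entry in the RefSeq promoter table (GRCh38.p14). Each sequence runs from 250 bases before to 50 after the annotated start, 5′ to 3′ on the gene's own strand. Capitals mark E2F words, which are TTTCCCGC, TTTCGCGC, TTTGCCGC or TTTGGCGC on either strand. The windows are chr20:5126573-5126872 (minus strand) for PCNA, chr3:127598161-127598460 (plus strand) for MCM2, chr16:85688905-85689204 (minus strand) for GINS2, chr17:40287629-40287928 (plus strand) for CDC6 and chr16:46689409-46689708 (plus strand) for ORC6.
PCNA: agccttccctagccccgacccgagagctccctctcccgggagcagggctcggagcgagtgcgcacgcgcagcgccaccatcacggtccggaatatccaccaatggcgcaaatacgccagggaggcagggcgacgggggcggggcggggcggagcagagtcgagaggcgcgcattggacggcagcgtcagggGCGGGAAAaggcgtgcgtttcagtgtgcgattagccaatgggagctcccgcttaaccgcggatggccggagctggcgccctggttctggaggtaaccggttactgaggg
MCM2: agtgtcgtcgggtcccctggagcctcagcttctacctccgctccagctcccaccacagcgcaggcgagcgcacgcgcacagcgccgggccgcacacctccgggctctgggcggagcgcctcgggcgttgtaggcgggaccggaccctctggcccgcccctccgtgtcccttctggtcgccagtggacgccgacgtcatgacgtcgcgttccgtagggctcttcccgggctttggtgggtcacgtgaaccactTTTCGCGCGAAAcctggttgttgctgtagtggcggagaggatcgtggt
GINS2: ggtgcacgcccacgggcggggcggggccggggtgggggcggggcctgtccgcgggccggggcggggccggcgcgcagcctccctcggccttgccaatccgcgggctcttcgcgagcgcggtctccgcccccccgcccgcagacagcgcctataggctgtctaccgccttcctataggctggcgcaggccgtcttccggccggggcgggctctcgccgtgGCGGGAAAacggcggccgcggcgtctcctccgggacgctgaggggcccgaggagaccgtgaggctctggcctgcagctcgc
CDC6: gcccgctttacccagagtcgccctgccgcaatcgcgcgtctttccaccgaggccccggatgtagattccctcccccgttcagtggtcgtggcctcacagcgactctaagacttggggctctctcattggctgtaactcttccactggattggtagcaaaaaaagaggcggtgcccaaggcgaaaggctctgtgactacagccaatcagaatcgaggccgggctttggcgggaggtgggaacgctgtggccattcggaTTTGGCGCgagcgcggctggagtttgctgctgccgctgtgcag
ORC6: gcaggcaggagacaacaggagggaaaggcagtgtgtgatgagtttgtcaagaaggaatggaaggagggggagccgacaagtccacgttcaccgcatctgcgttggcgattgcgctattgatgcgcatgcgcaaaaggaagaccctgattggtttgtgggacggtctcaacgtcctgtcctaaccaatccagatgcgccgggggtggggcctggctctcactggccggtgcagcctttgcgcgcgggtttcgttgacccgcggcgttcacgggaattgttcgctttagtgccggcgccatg
The word of PCNA begins 59 bases before the start and that of GINS2 31 bases before it. In MCM2 a pair of overlapping words lies just after the start, and in CDC6 a word lies just after the start as well. The ORC6 window holds none. Of the 31 members with an entry, 17 (54.8%) held an E2F word, against 3.31% of 35116 promoters in the table and 5.26% of the 11624 promoters whose gene was tested. CCAAT, on either strand, was in 18 member promoters (58.1%, against 34.6% of all and 37% of tested genes). The word TGGGAA, the core that the NOTCH partner RBPJ binds, was in 7 on either strand (22.6%, against 24% of all and 22% of tested genes). The E-box CACGTG, the word bound by MYC, was in 4 (12.9%, against 7.26% of all and 9.83% of tested genes). PCNA, MCM2 and GINS2, which fell under CB-103 as given further on, thus each hold an E2F word. Of the 2 printed members that rose in NT cells, CDC6 holds a word and ORC6 does not. Whether the word goes with the direction of change was not tested. A word is a match of letters in this window and says nothing of what binds there.

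The 18 libraries held 30416183 to 43558387 estimated reads. PIK3R1 itself stood at 21.4 to 23.2 CPM (counts scaled to library size) in KO DMSO, against 42.5 to 45.5 CPM in NT DMSO, and at 23.9 to 32.2 CPM in KO GSI, against 50.7 to 57.1 CPM in NT GSI. Under CB-103 the genotypes overlapped, at 25.9 to 29.9 CPM in KO and 29.05 to 33.5 CPM in NT (adjusted p = 0.173). Among 9 T-cell markers, LCK averaged 385 to 771 CPM per group and CD7 was low (0.998 to 21.9 CPM), and the erythroid genes HBB and HBA1 were at 0. Reads from mitochondrially encoded genes made up 1.79 to 2.46% in the KO groups and 3.34 to 5.23% in the NT groups on average, and spread from 1.90 to 5.51% within NT GSI. The part of these differences in the results was not tested. Libraries of replicate 1 differed from the others. 10 of the 39 members stood higher and 1 lower in them (all genes: 1698 higher and 790 lower of 17346), with a median of 0.05 on the log2 scale over the members, so counts from replicates 2 and 3 alone are given where they differ.

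By transcript abundance per length (TPM) the members spanned a wide range. In NT DMSO, PCNA was the most abundant at 506 ± 17.8 TPM, followed by MCM7 at 312 ± 5.9 and MCM3 at 164 ± 3.5 TPM. The least abundant of the 39 were GINS4 at 15.5 ± 1.6, GINS2 at 19.3 ± 0.97 and POLA1 at 20.4 ± 0.47 TPM (SD, n = 3 for each). Cyclin E transcripts were almost wholly those assigned to CCNE2, at 31.1 ± 0.86 TPM in NT DMSO, while CCNE1 averaged at most 0.160 TPM in any group. Protein was not measured. Summed over the 40 members, expression was 4646 ± 157 CPM in KO CB-103, 6251 ± 169 in KO GSI, 6110.4 ± 158 in KO DMSO, 3657 ± 171 in NT CB-103, 5641 ± 25.1 in NT GSI and 5820.1 ± 147 in NT DMSO (SD, n = 3).

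CB-103 lowered most of the machinery in both genotypes, and raised the licensing factor CDC6 and the helicase subunit MCM5. In KO cells 27 of the 39 members fell and 3 rose against DMSO, beside 23.7% lower and 24.9% higher over all genes tested (edgeR quasi-likelihood F test, adjusted p under 0.05 over 17346 genes). In NT cells 33 fell and 3 rose, beside 28.7% lower and 29.5% higher over all genes. The members were listed with earlier results of these data known, so these shares are a description. The members' median log2 fold change was -0.45 in KO cells, where the median of all genes was -0.01, and -0.70 in NT cells, where it was 0.04. In NT cells 11 members fell at least 2-fold, and in KO cells 1 did. The libraries did not overlap between CB-103 and DMSO for any of the called members, in either genotype. The share of all genes without overlap was not counted, so this adds nothing to the calls. The same holds wherever libraries or groups are said below to lie apart. Marker genes moved with CB-103 as well. The 9 T-cell markers summed to 1187 to 1256 CPM in KO CB-103, against 1598 to 1705 CPM in KO DMSO, and to 1089.7 to 1210.1 CPM in NT CB-103, against 1888 to 1977 CPM in NT DMSO. The T-cell gene CD2 averaged 12.4 CPM in KO CB-103, against 55.2 CPM in KO DMSO, and 5.23 CPM in NT CB-103, against 64.6 CPM in NT DMSO. The list did not move as 1 in KO cells. CD247 averaged 111 CPM in KO CB-103, against 95.7 CPM in KO DMSO, and CD5 overlapped at 127 and 122 CPM. LCK, the most abundant of the list, averaged 412 CPM in KO CB-103, against 618 CPM in KO DMSO. The 6 T-ALL factor genes (TAL1, LMO1, LMO2, TAL2, GATA3 and MYB) summed to 474.5 to 504.5 CPM in KO CB-103, against 893.7 to 998.2 CPM in KO DMSO. In NT cells they summed to 389.4 to 441.6 CPM under CB-103, against 1118.2 to 1136.6 CPM under DMSO. Of these genes, LMO2 and TAL2 averaged under 1 CPM in every group. The 6 myeloid markers summed to 32.5 to 40.4 CPM in KO CB-103, against 4.65 to 5.34 CPM in KO DMSO, and to 15.1 to 17.2 CPM in NT CB-103, against 5.23 to 6.63 CPM in NT DMSO. CD68 made up most of these sums, at 34.9 CPM in KO CB-103 and 14.3 CPM in NT CB-103 on average, while the myeloid genes CSF1R, CD14 and MPO stayed under 1 CPM. The 5 markers of adherent cells summed to 2.73 to 5.12 CPM in KO CB-103, against 8.02 to 12.5 CPM in KO DMSO, and to 3.84 to 4.84 CPM in NT CB-103, against 15.8 to 18.8 CPM in NT DMSO, nearly all of it COL1A1. The B-cell and the erythroid and megakaryocytic lists each summed to under 6 CPM in every library. Markers shifted under GSI too. The T-cell markers summed to 1574.8 to 1613.7 CPM in NT GSI, below NT DMSO. In KO GSI they summed to 1547.5 to 1609.4 CPM, which overlapped KO DMSO. CD2 averaged 28.1 CPM in KO GSI and 14.8 CPM in NT GSI. The T-ALL factor genes summed to 807.7 to 885.2 CPM in KO GSI and 962.2 to 999.8 CPM in NT GSI, below DMSO in both genotypes. The part of these shifts in the members' results was not tested.

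**Figure D1:**
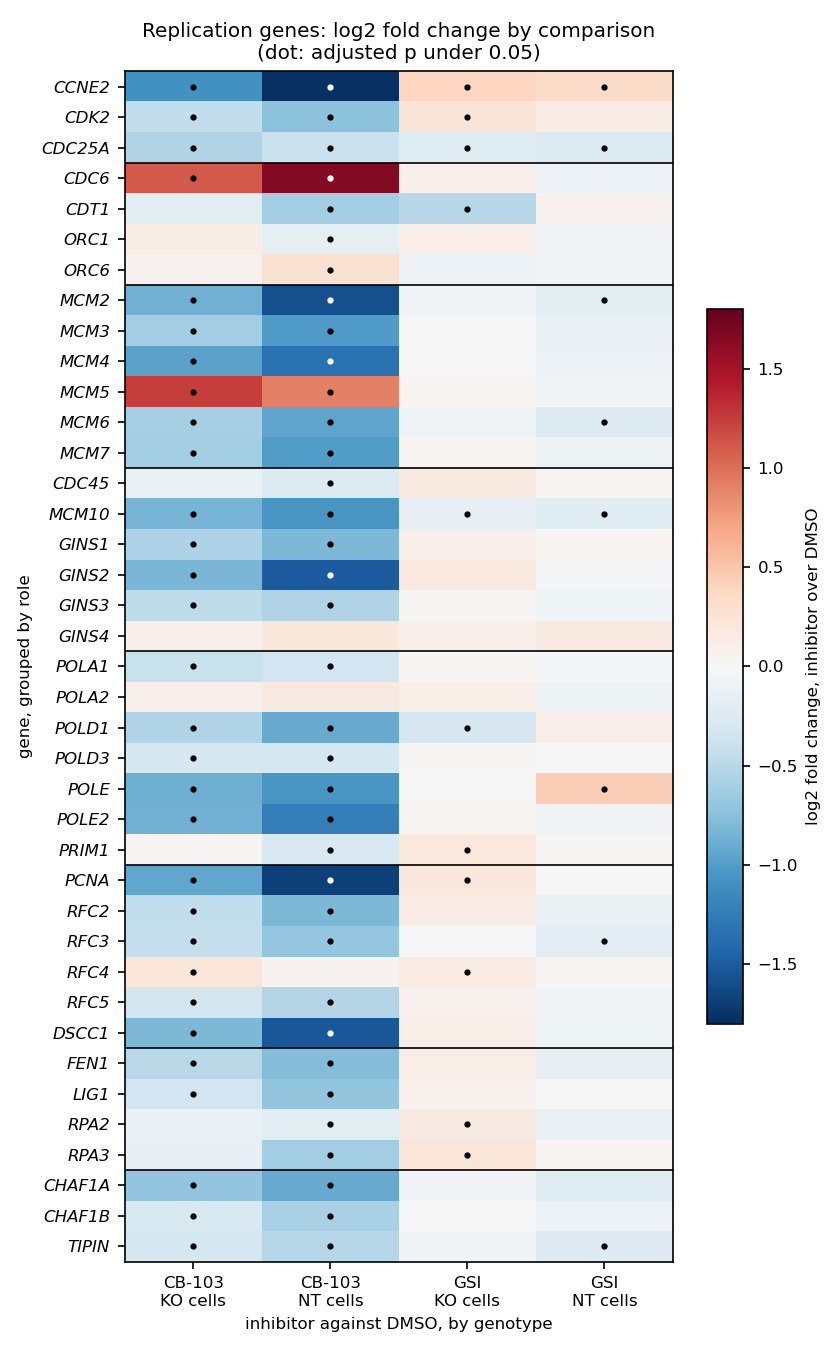
Log2 fold change of the 39 tested members (down the page, grouped by role) for CB-103 and GSI against DMSO in KO and NT cells. Blue is lower, red is higher, and a dot marks an adjusted p under 0.05. The CB-103 columns are mostly blue apart from CDC6 and MCM5, and the GSI columns are pale.

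The genes of the cyclin E kinase fell under CB-103, all 3 tested in each genotype. CCNE2 (chr8:94879770-94896678 in hg38), the only abundant cyclin E gene here, fell most of all members. In KO cells CCNE2 stood at 22.03, 23.1 and 23.3 CPM under CB-103, against 48.8, 47.01 and 49.2 CPM under DMSO. In NT cells it stood at 11.7, 12.3 and 11.7 CPM under CB-103, against 42.3, 41.01 and 40.1 CPM under DMSO. The groups lay far apart in both genotypes, with falls of 2.12-fold in KO cells (log2 -1.08 ± 0.07 (SE), adjusted p = 2.97e-10) and 3.46-fold in NT cells (log2 -1.79 ± 0.07, adjusted p = 3.84e-13). The exons of CCNE2 are covered for 37.05% of their length by INTS8 on the opposite strand, and the sources used here do not state whether reads were assigned by strand. The mean count of INTS8 was 140.9% of that of CCNE2. INTS8 was not called in any comparison (NT CB-103 against NT DMSO log2 -0.17, adjusted p = 0.124).

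CDK2, the kinase partner of cyclin E, fell less. It stood at 108, 104 and 112 CPM in KO CB-103, against 149, 145 and 148 CPM in KO DMSO. In NT cells it stood at 89.3, 78.4 and 81.8 CPM under CB-103, against 141, 142 and 134 CPM under DMSO. The fold was 1.36 in KO cells (adjusted p = 1.27e-06) and 1.67 in NT cells (adjusted p = 1.19e-09). CCNE2 transcript per CDK2 transcript was lower under CB-103, at 0.235 ± 0.0098 against 0.365 ± 0.0052 under DMSO in KO cells, and at 0.160 ± 0.014 against 0.329 ± 0.0078 under DMSO in NT cells (ratio of TPM, SD, n = 3, no test). CDC25A, the phosphatase that activates CDK2, fell 1.46-fold in KO cells and 1.32-fold in NT cells.

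The licensing factors did not move together. CDC6 (chr17:40287633-40304657), the ATPase that loads the helicase with ORC, rose, while CDT1, its partner in loading, was lower. CDC6 stood at 173, 138 and 165 CPM in KO CB-103, against 78.7, 75.8 and 66.8 CPM in KO DMSO. In NT cells CDC6 stood at 253, 229 and 234 CPM under CB-103, against 81.4, 75.5 and 71.3 CPM under DMSO. Every CB-103 library was above every DMSO library. The rise was 2.15-fold in KO cells (log2 1.10 ± 0.08, adjusted p = 3.29e-09) and 3.14-fold in NT cells (log2 1.65 ± 0.08, adjusted p = 8.67e-12).

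CDT1 stood at 102, 111 and 103.5 CPM in KO CB-103, against 114, 129 and 117 CPM in KO DMSO, and missed the threshold there (log2 -0.18 ± 0.08, adjusted p = 0.0675). In NT cells it stood at 63.8, 62.7 and 74.5 CPM under CB-103, against 99.4, 115 and 95.3 CPM under DMSO, a fall of 1.54-fold (adjusted p = 3.19e-06). Of the origin recognition subunits, ORC6 rose in NT cells, at 65.03, 66.6 and 76.8 CPM under CB-103, against 58.1, 57.2 and 57.2 CPM under DMSO (log2 0.27 ± 0.06, adjusted p = 0.000715). In KO cells ORC6 was not called (log2 0.08 ± 0.06, adjusted p = 0.294), and the difference between its KO and NT changes was not called either. ORC1, the largest ORC subunit, fell slightly in NT cells (log2 -0.17 ± 0.05, adjusted p = 0.0103), a call that was lost without NT CB-103 replicate 3 (log2 -0.13, adjusted p = 0.0578). The ratio of CDC6 to ORC1 TPM was 2.199 ± 0.16 under CB-103 and 1.12 ± 0.11 under DMSO in KO cells, and 4.08 ± 0.17 under CB-103 and 1.16 ± 0.04 under DMSO in NT cells.

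Within the MCM2-7 ring, whose subunits assemble in equal numbers, 5 genes fell and MCM5 rose in both genotypes. MCM2 fell most in NT cells and MCM4 in KO cells. MCM2 stood at 245, 232 and 242 CPM in KO CB-103, against 451, 422 and 435 CPM in KO DMSO. In NT cells it stood at 150.03, 134 and 133 CPM under CB-103, against 434, 407 and 406 CPM under DMSO. The falls of 1.82-fold in KO cells (log2 -0.86 ± 0.05, adjusted p = 3.33e-10) and 2.99-fold in NT cells (log2 -1.58 ± 0.05, adjusted p = 7.51e-14) far exceeded the spread between libraries. MCM4 stood at 201, 182 and 168 CPM in KO CB-103, against 409, 327 and 337 CPM in KO DMSO. In NT cells MCM4 stood at 142, 119 and 102 CPM under CB-103, against 353, 281 and 290.0 CPM under DMSO. Replicate 1 gave the highest MCM4 value in each of these 4 groups, and the groups did not overlap. MCM4 fell 1.95-fold in KO cells and 2.54-fold in NT cells (adjusted p = 8.26e-06 and 9.52e-08). MCM3, MCM6 and MCM7 fell by 1.54, 1.51 and 1.55-fold in KO cells and by 2.02, 1.94 and 2.01-fold in NT cells.

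MCM5 (chr22:35400063-35425430) went the other way. It stood at 546, 429.7 and 488 CPM in KO CB-103, against 213, 201 and 202 CPM in KO DMSO. In NT cells it stood at 349, 292 and 354 CPM under CB-103, against 186, 174 and 173 CPM under DMSO. Each CB-103 library exceeded each DMSO library, with a rise of 2.38-fold in KO cells (log2 1.25 ± 0.08, adjusted p = 8.8e-10) and 1.87-fold in NT cells (log2 0.90 ± 0.08, adjusted p = 3.37e-08). As a share of the summed MCM2-7 transcript abundance (TPM), MCM5 made up 28.1 ± 1.9% in KO CB-103, 9.39 ± 0.21% in KO GSI and 9.19 ± 0.07% in KO DMSO. In NT cells the share was 26.6 ± 2.3% under CB-103, 8.64 ± 0.17% under GSI and 8.18 ± 0.06% under DMSO (SD, n = 3). MCM5 was thus the most abundant subunit transcript in KO CB-103, where MCM7 made up 23.6 ± 1.0%, and the least abundant under DMSO in both genotypes. In NT CB-103 the mean share of MCM7 was above it, at 29.3 ± 0.8%, though in 1 of the 3 libraries MCM5 was higher (29.1% against 28.6%).

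**Figure D2:**
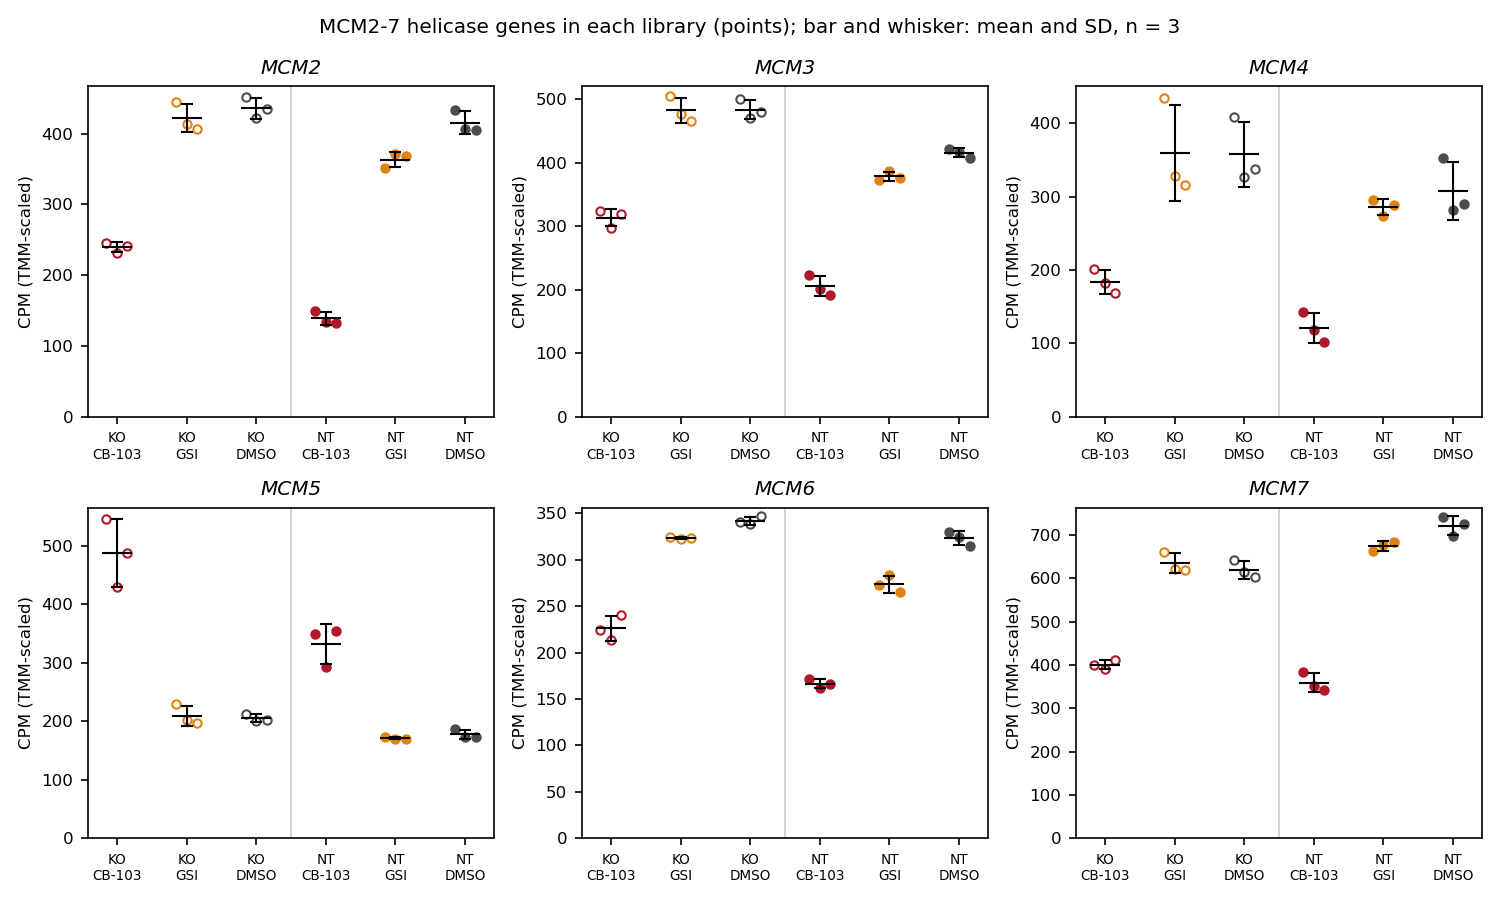
Library-scaled CPM of the 6 MCM2-7 genes in each of the 18 libraries, by group (points), with the mean and SD of 3 libraries (bars and whiskers). MCM5 is highest under CB-103 in both genotypes, and the other 5 genes are lowest there.

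**Figure D3:**
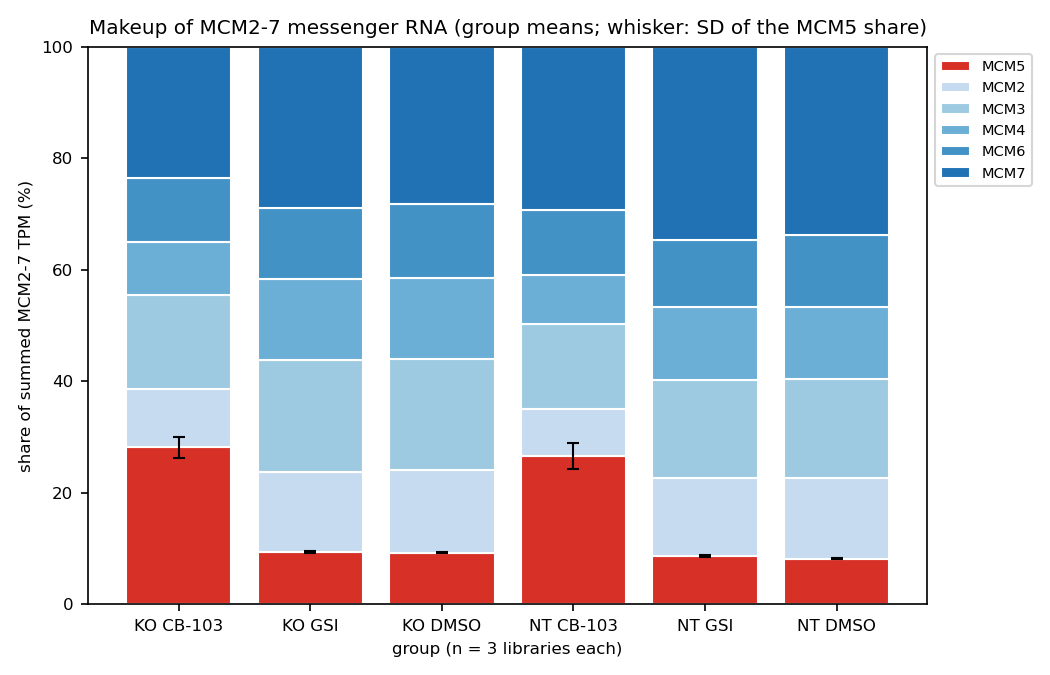
Share of each subunit gene in the summed TPM of MCM2-7, as the mean of 3 libraries per group, with the SD of the MCM5 share as whiskers. The MCM5 share is 28.1% in KO CB-103 and 26.6% in NT CB-103, and between 8.18% and 9.39% in the other 4 groups.

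The genes that turn the loaded ring into a moving helicase fell for 4 of 6 in KO cells and 5 of 6 in NT cells. GINS2, a subunit of the GINS complex, stood at 25.4, 22.5 and 24.5 CPM in KO CB-103, against 43.98, 42.2 and 42.4 CPM in KO DMSO. In NT cells GINS2 stood at 15.2, 12.97 and 13.7 CPM under CB-103, against 41.1, 39.6 and 37.3 CPM under DMSO. These are falls of 1.78-fold (adjusted p = 5.03e-09) and 2.82-fold (adjusted p = 1.71e-12), with the groups apart. MCM10, which activates the assembled helicase, stood at 77.4, 72.5 and 78.5 CPM in KO CB-103, against 141, 132 and 136 CPM in KO DMSO. In NT cells MCM10 stood at 59.6, 57.9 and 54.8 CPM under CB-103, against 124, 117 and 117 CPM under DMSO. It fell 1.79-fold in KO cells and 2.07-fold in NT cells. The 4 GINS subunits act as a unit, yet their genes differed: GINS1 fell 1.47-fold in KO and 1.75-fold in NT cells and GINS3 1.37-fold and 1.46-fold, while GINS4 was not called in either (log2 0.09 ± 0.14 and 0.20 ± 0.14). CDC45, the cofactor that joins GINS on the ring, fell in NT cells (log2 -0.25 ± 0.07, adjusted p = 0.00639) and was not called in KO cells (log2 -0.14 ± 0.07, adjusted p = 0.116). For CDC45 the difference between these changes was not called.

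Among the polymerase and primase genes, 5 of 7 fell in KO cells and 6 of 7 in NT cells, and the leading-strand polymerase epsilon fell most. Its catalytic subunit gene POLE stood at 178, 226 and 191 CPM in KO CB-103, against 344, 391 and 359.9 CPM in KO DMSO. In NT cells POLE stood at 178, 175 and 185 CPM under CB-103, against 366, 349 and 394 CPM under DMSO. The fall was 1.84-fold in KO cells (adjusted p = 2.49e-07) and 2.06-fold in NT cells (adjusted p = 1.76e-08), without overlap. POLE2, its accessory subunit, stood at 18.01, 16.5 and 16.9 CPM in KO CB-103, against 32.3, 30.4 and 31.1 CPM in KO DMSO. In NT cells POLE2 stood at 19.8, 16.9 and 17.2 CPM under CB-103, against 44.3, 40.5 and 41.5 CPM under DMSO. POLE2 fell 1.82-fold in KO cells and 2.34-fold in NT cells.

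Polymerase delta copies the lagging strand. Its catalytic gene POLD1 fell 1.46-fold in KO cells and 1.88-fold in NT cells, and its subunit gene POLD3 1.23-fold and 1.24-fold. Of the polymerase alpha-primase complex, which starts each strand, POLA1 fell 1.32-fold in KO and 1.27-fold in NT cells. The primase gene PRIM1 fell in NT cells (log2 -0.28 ± 0.05, adjusted p = 6.5e-05) and was not called in KO cells (log2 0.05 ± 0.05, adjusted p = 0.441). POLA2 was not called in either (log2 0.10 ± 0.10 in KO and 0.16 ± 0.10 in NT cells). An unnamed transcript on the same strand, AP000944.2, covers 35.14% of the POLA2 exons, and its count was 8.29% of that of POLA2.

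The sliding clamp and most of its loaders fell. PCNA (chr20:5114953-5126626), the most abundant member, stood at 229.7, 209.6 and 230.1 CPM in KO CB-103, against 452, 414 and 419 CPM in KO DMSO. In NT cells PCNA stood at 134, 115 and 114 CPM under CB-103, against 405, 378 and 378 CPM under DMSO. The groups did not come near each other, with falls of 1.92-fold in KO cells (log2 -0.94 ± 0.06, adjusted p = 7.88e-10) and 3.21-fold in NT cells (log2 -1.68 ± 0.06, adjusted p = 2.36e-13). DSCC1, part of the alternative loader that supports sister chromatid cohesion, stood at 21.5, 21.4 and 23.4 CPM in KO CB-103, against 39.6, 36.5 and 39.4 CPM in KO DMSO. In NT cells DSCC1 stood at 14.6, 13.7 and 12.7 CPM under CB-103, against 41.3, 37.9 and 38.8 CPM under DMSO. DSCC1 fell 1.74-fold in KO cells and 2.87-fold in NT cells.

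The small subunits of the clamp loader RFC were uneven. RFC2, RFC3 and RFC5 fell by 1.36, 1.34 and 1.26-fold in KO cells and by 1.75, 1.62 and 1.44-fold in NT cells. RFC4 instead rose in KO cells, at 128, 126 and 129.8 CPM under CB-103, against 115, 107 and 108 CPM under DMSO (log2 0.22 ± 0.04, adjusted p = 0.00036). In NT cells RFC4 overlapped between the groups, at 108, 105 and 100.3 CPM under CB-103 and 102.9, 98.3 and 99.3 CPM under DMSO (log2 0.06 ± 0.04, adjusted p = 0.248). Tested directly, the KO and NT changes of RFC4 were not called different.

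**Figure D4:**
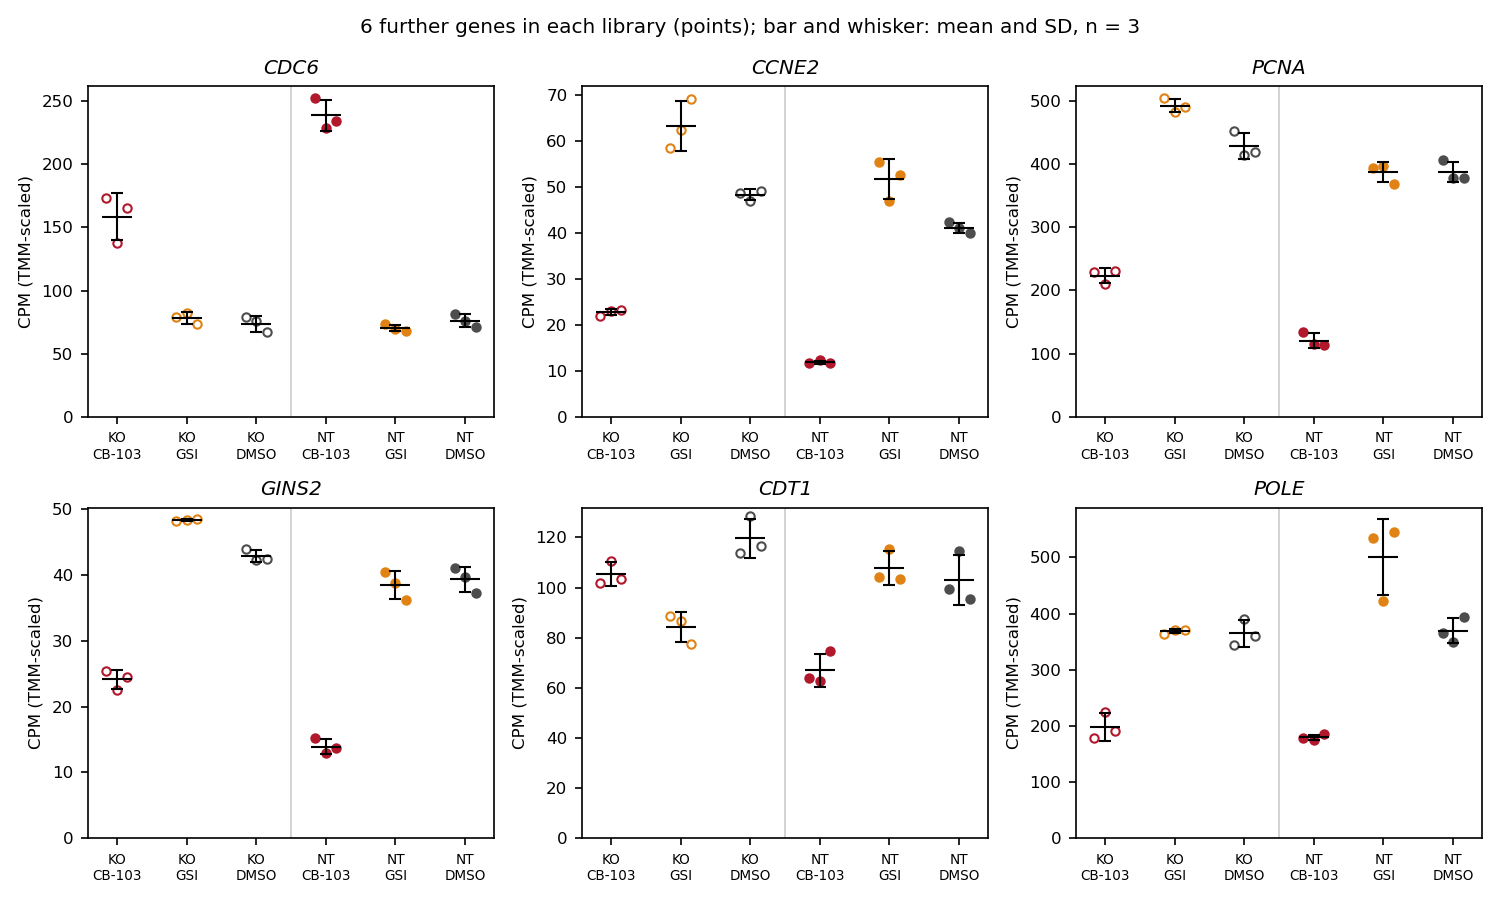
Library-scaled CPM of CDC6, CCNE2, PCNA, GINS2, CDT1 and POLE in each library (points), with the mean and SD of 3 libraries per group. CCNE2, PCNA, GINS2 and POLE are lowest under CB-103, CDC6 is highest there, CDT1 is low in NT CB-103 and KO GSI, and POLE is high in NT GSI.

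The genes that finish the lagging strand fell as well. FEN1, the nuclease that trims the flaps of Okazaki fragments, stood at 136, 117 and 136 CPM in KO CB-103, against 188, 179.7 and 186 CPM in KO DMSO. In NT cells FEN1 stood at 133, 112 and 117 CPM under CB-103, against 217, 207 and 199 CPM under DMSO. All CB-103 libraries lay below the DMSO libraries, with falls of 1.42-fold in KO and 1.72-fold in NT cells. LIG1, the ligase that seals them, stood at 119, 116 and 115 CPM in KO CB-103, against 146, 152 and 146 CPM in KO DMSO. In NT cells LIG1 stood at 86.9, 91.9 and 88.6 CPM under CB-103, against 148, 143 and 146 CPM under DMSO. LIG1 fell 1.27-fold in KO and 1.64-fold in NT cells, also without overlap. The genes of RPA, which coats single-stranded DNA, fell in NT cells (RPA2 log2 -0.21 ± 0.05, RPA3 log2 -0.62 ± 0.07) and were not called in KO cells (RPA2 log2 -0.11 ± 0.05, RPA3 log2 -0.14 ± 0.07). The difference between these changes was called for RPA3 and not for RPA2.

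CAF-1 places histones on new DNA, and both of its measured genes fell. CHAF1A stood at 116, 102 and 103.4 CPM in KO CB-103, against 200.2, 159 and 165 CPM in KO DMSO. In NT cells CHAF1A stood at 96.1, 79.9 and 79.5 CPM under CB-103, against 159, 147 and 173 CPM under DMSO. The large subunit gene thus fell 1.63-fold in KO and 1.87-fold in NT cells. CHAF1B stood at 64.4, 57.7 and 61.3 CPM in KO CB-103, against 76.02, 77.2 and 69.4 CPM in KO DMSO. In NT cells CHAF1B stood at 51.9, 42.9 and 47.3 CPM under CB-103, against 71.3, 73.6 and 69.03 CPM under DMSO. No CB-103 library reached a DMSO library of its genotype for either gene, and CHAF1B fell 1.21-fold in KO and 1.502-fold in NT cells. TIPIN, which protects stalled forks, fell 1.24-fold and 1.42-fold. Its main transcript also made up less of the gene, at 51.0 ± 2.0% of its TPM in NT CB-103, against 65.01 ± 5.7% in NT DMSO, while in KO cells the shares overlapped. Without overlap, the share of the main transcript was lower in NT CB-103 than in NT DMSO for 8 members and higher for 3. In KO cells it was lower for 2 and higher for 4. How many of all genes shift in this way was not counted, so these numbers are not read as a result about the members.

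Genes of the same processes outside the 40 members, also listed with earlier results known, fell more often than they rose under CB-103. Of 38 such genes, all tested, 24 fell and 5 rose under CB-103 in KO cells (median log2 -0.33), and 25 fell and 6 rose in NT cells (median -0.38). As shares these are 63.2% lower and 13.2% higher in KO cells, beside 23.7% and 24.9% of all genes. In NT cells they are 65.8% and 15.8%, beside 28.7% and 29.5%. ORC3, an ORC subunit, rose in both, by log2 1.18 ± 0.08 in KO and 1.15 ± 0.08 in NT cells. DNA2, a nuclease for long flaps, fell in both, with log2 changes of -0.97 ± 0.08 in KO and -1.29 ± 0.08 in NT cells. MCMBP, which binds MCM subunits, fell (log2 -0.89 ± 0.06 in KO and -1.02 ± 0.06 in NT cells), and the histone chaperone ASF1A rose (log2 0.82 ± 0.05 and 1.01 ± 0.05). The histone chaperone ASF1B fell (log2 -0.76 ± 0.05 and -1.18 ± 0.05), as did SKP2, a ubiquitin ligase subunit that acts on CDT1 (log2 -0.68 ± 0.05 and -1.08 ± 0.05).

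The response to CB-103 was smaller in KO than in NT cells for many members, tested as the difference of the log2 changes (KO minus NT). The difference was called for 22 of the 39: 21 positive, beside 10.3% of all genes, and 1 negative, beside 4.34%. The members' median difference was 0.29, where that of all genes was 0.01. PCNA had the greatest difference. Its CPM values under both treatments are given above, and the fall of log2 -0.94 ± 0.06 in KO cells against -1.68 ± 0.06 in NT cells left a difference of 0.74 ± 0.09 (adjusted p = 3.11e-05). DSCC1 differed by 0.72 ± 0.10 (adjusted p = 9.35e-05) and MCM2 by 0.72 ± 0.08 (adjusted p = 1.19e-05). CCNE2 at 0.71 ± 0.10 and GINS2 at 0.66 ± 0.09 came next.

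CDC6 was the negative one. It rose under CB-103 in both genotypes, by log2 1.10 ± 0.08 in KO and 1.65 ± 0.08 in NT cells, a difference of -0.55 ± 0.11 (adjusted p = 0.00342). MCM5 was not called (difference 0.35 ± 0.12, adjusted p = 0.0545), though it was without NT CB-103 replicate 1 or KO CB-103 replicate 2 (adjusted p = 0.0448 and 0.0181). By role, the difference was called for 5 of 6 clamp genes, 4 of 6 MCM2-7 genes, 2 of 3 cyclin E kinase genes, 3 of 6 helicase activation genes, 3 of 4 licensing genes, 2 of 7 polymerase and primase genes, 2 of 4 of the flap, ligation and RPA genes, and 1 of 3 of the CAF-1 and fork genes. The mitochondrial read share under CB-103 averaged 2.24% in KO and 5.23% in NT cells, against 1.79% and 3.34% under DMSO, and PIK3R1 was not called between KO and NT cells under CB-103 (adjusted p = 0.173). The part of either in these differences was not tested. Leaving out a library in turn kept 15 of the 22 calls, and those of RFC5, CHAF1B, MCM10 and POLE2 were lost most often.

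**Figure D5:**
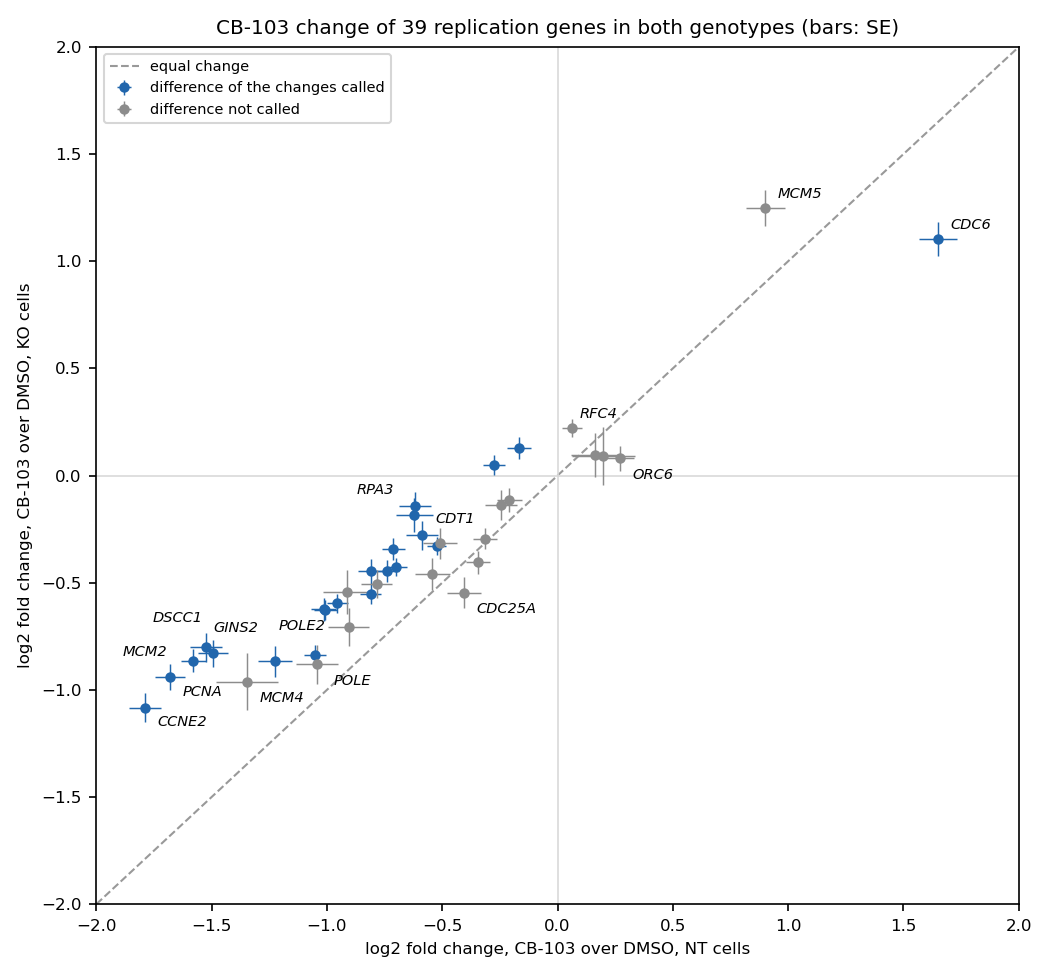
Log2 fold change under CB-103 against DMSO in NT cells (horizontal) and KO cells (vertical) for the 39 members, with SE bars. Blue points mark a called difference between genotypes. Most falling genes lie above the dashed line of equal change, and CDC6 lies below it.

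Under GSI few members moved. In KO cells 7 rose and 4 fell against DMSO, beside 9.69% higher and 9.58% lower over all genes. In NT cells 2 rose and 6 fell, beside 9.67% higher and 15% lower. As shares these are 17.9% higher and 10.3% lower in KO cells and 5.13% higher and 15.4% lower in NT cells. These counts were not stable against single libraries, as given for the named genes, and no share is read as standing apart from the background. The members' median was 0.05 in KO cells and -0.06 in NT cells, where that of all genes was near 0. CCNE2, lowered by CB-103, was raised by GSI. It stood at 58.4, 62.4 and 69.1 CPM in KO GSI, against 48.8, 47.01 and 49.2 CPM in KO DMSO, and at 55.5, 46.96 and 52.6 CPM in NT GSI, against 42.3, 41.01 and 40.1 CPM in NT DMSO. Each GSI library was above the DMSO libraries of its genotype (log2 0.39 ± 0.06, adjusted p = 0.000289 in KO cells, and 0.33 ± 0.06, adjusted p = 0.000978 in NT cells).

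POLE rose in NT cells, at 535, 423 and 545 CPM under GSI, against 366, 349 and 394 CPM under DMSO (log2 0.44 ± 0.09, adjusted p = 0.0015). The mitochondrial read share of the same 3 GSI libraries was 5.51, 1.90 and 3.95%, so that POLE was lowest in the library with the lowest share, and its part in this result was not tested. In KO cells POLE was not called under GSI (log2 0.01 ± 0.09), and the difference between genotypes missed the threshold (log2 -0.43 ± 0.13, adjusted p = 0.0775), but passed without NT GSI replicate 2 (log2 -0.49, adjusted p = 0.0147). The members that fell in NT cells were MCM2, MCM6, MCM10, CDC25A, RFC3 and TIPIN, with log2 changes between -0.25 ± 0.07 for CDC25A and -0.19 ± 0.05 for MCM2. The calls of CDC25A, MCM2 and TIPIN were lost without NT DMSO replicate 1, which left 3. Those that rose in KO cells were CCNE2, CDK2, PCNA, RFC4, PRIM1, RPA2 and RPA3, by log2 0.15 to 0.39. Without KO GSI replicate 3 those of PCNA, RFC4, RPA2 and RPA3 were lost, which left 3, and 4 remained called without KO DMSO replicate 2 or KO GSI replicate 2.

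Against the direction of most called members in KO GSI went CDT1, CDC25A, POLD1 and MCM10. CDT1, the loading partner of CDC6, stood at 88.5, 86.7 and 77.4 CPM under GSI, against 114, 129 and 117 CPM under DMSO (log2 -0.51 ± 0.08, adjusted p = 0.000228). CDC25A stood at 101, 99.9 and 85.6 CPM under GSI, against 114, 110.2 and 108 CPM under DMSO (adjusted p = 0.0495). The remaining pair acts at the fork. POLD1 stood at 102, 116 and 121 CPM under GSI, against 131, 146 and 142 CPM under DMSO (adjusted p = 0.0442). MCM10 stood at 126, 119 and 125 CPM under GSI, against 141, 132 and 136 CPM under DMSO (adjusted p = 0.0429). No GSI library overlapped a DMSO library in these 4 genes, but the calls of CDC25A, POLD1 and MCM10 were each lost in most fits that left out a library of these groups, while that of CDT1 was kept. These fits left 1 or 2 of the 4 members called lower.

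CDT1 was also 1 of 2 members whose response to GSI differed between genotypes, with a difference of -0.57 ± 0.11 (adjusted p = 0.0217). Under GSI it stood at the KO values above, against 104, 115 and 103.5 CPM in NT GSI and 99.4, 115 and 95.3 CPM in NT DMSO, which overlapped. The other was RPA2, at 194, 192 and 188 CPM in KO GSI and 181, 165 and 167 CPM in KO DMSO, against 150.45, 151 and 139 CPM in NT GSI and 169, 159 and 154 CPM in NT DMSO (difference 0.29 ± 0.08, adjusted p = 0.0493). The 1 negative and 1 positive call compare with 0.692% and 2.1% of all genes. Both calls were lost when certain libraries were left out, that of CDT1 without NT DMSO replicate 1, KO DMSO replicate 2 or KO GSI replicate 3 (log2 -0.54, -0.48 and -0.51). Of the 38 other replication genes, 7 rose and 3 fell under GSI in KO cells (18.4% and 7.89%, beside 9.69% and 9.58% of all genes). In NT cells 2 rose and 7 fell (5.26% and 18.4%, beside 9.67% and 15%), among them GMNN, the inhibitor of CDT1, at log2 -0.54 ± 0.06. These shares are not read as standing apart from the background.

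Set against each other in the same genotype, CB-103 left most members lower than GSI did. In KO cells 30 members were lower and 4 higher under CB-103 than under GSI, beside 23.1% lower and 24.7% higher over all genes, with a median of -0.43 (all genes 0.01). In NT cells 30 were lower and 4 higher, beside 27.1% and 29.2%, with a median of -0.66 (all genes 0.02). The doses are not given, so they may not be matched. CCNE2 differed most, at log2 -1.47 ± 0.07 in KO and -2.12 ± 0.07 in NT cells (adjusted p = 5.56e-12 and 4.24e-14). CDC6, MCM5 and ORC6 were higher under CB-103 in both, by log2 1.02 ± 0.08, 1.22 ± 0.08 and 0.19 ± 0.06 in KO cells and 1.76 ± 0.08, 0.96 ± 0.08 and 0.34 ± 0.06 in NT cells. In KO cells ORC6 missed the threshold if KO CB-103 replicate 2 or 3 or KO GSI replicate 1 was left out (adjusted p up to 0.156). In KO cells CDT1 was higher as well, at 102, 111 and 103.5 CPM under CB-103, against 88.5, 86.7 and 77.4 CPM under GSI (adjusted p = 0.003, and 0.161 with gene sums of transcript estimates). In NT cells POLA2 was higher, at 66.4, 57.2 and 54.2 CPM under CB-103, against 53.6, 47.6 and 47.7 CPM under GSI (adjusted p = 0.0437), a call lost without NT CB-103 replicate 1 (log2 0.17, adjusted p = 0.225) and also without NT GSI replicate 2 or 3. The comparisons of CB-103 and of GSI with DMSO share their DMSO libraries.

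Between genotypes, members stood higher in KO cells, with 10 called under DMSO, 30 under CB-103 and 22 under GSI. For GSI the test of the difference of responses, given above, called 1 member higher and 1 lower, so an excess over DMSO was not shown. Under DMSO 10 members were higher and 2 lower in KO than in NT cells, beside 9.78% higher and 11.7% lower over all genes, with a median of 0.10 (all genes 0.00). In replicates 2 and 3 alone 6 were higher, and the number was 4 without NT DMSO replicate 3, 5 without KO DMSO replicate 1 and 6 without KO DMSO replicate 3. The lowest of these counts is a share near the background. RFC3, a clamp loader subunit, stood at 81.1, 78.7 and 82.03 CPM in KO DMSO, against 60.6, 59.8 and 59.2 CPM in NT DMSO (log2 0.43 ± 0.04, adjusted p = 1.26e-06). POLE2 was lower, at 32.3, 30.4 and 31.1 CPM in KO DMSO, against 44.3, 40.5 and 41.5 CPM in NT DMSO (log2 -0.43 ± 0.07, adjusted p = 0.000204). POLA1 stood at 108, 101 and 107 CPM in KO DMSO, against 89.4, 85.3 and 85.1 CPM in NT DMSO (log2 0.28 ± 0.05, adjusted p = 0.000806). These 3 genes were named for the largest called changes. Their libraries did not overlap between the genotypes, which adds nothing to the calls. The helicase gene MCM7 was lower in KO DMSO as well (log2 -0.22 ± 0.05, adjusted p = 0.00263).

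Under CB-103, 30 members were higher in KO than in NT cells and 1 was lower, beside 20.4% and 16.5% of all genes, with a median of 0.33 (all genes near 0). CCNE2 stood at 22.8 ± 0.68 CPM in KO CB-103 and 11.9 ± 0.32 CPM in NT CB-103 (SD, n = 3, log2 0.94 ± 0.07, adjusted p = 2.54e-08). PCNA stood at 223 ± 11.7 CPM and 121 ± 11.2 CPM in the same groups (log2 0.89 ± 0.06, adjusted p = 1.09e-08). GINS2 and MCM2 were both higher by log2 0.79. All 6 MCM2-7 genes, MCM5 included, and all 6 clamp genes were higher in KO cells. For MCM7 (log2 0.16 ± 0.05) the call was lost without NT CB-103 replicate 2 or 3 or KO CB-103 replicate 1 or 3 (adjusted p up to 0.129). CDC6 alone was lower, at 159 ± 18.5 CPM in KO CB-103 and 239 ± 12.4 CPM in NT CB-103 (log2 -0.59 ± 0.08, adjusted p = 1.53e-05).

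Under GSI, 22 members were higher in KO than in NT cells and 4 were lower, beside 18.8% and 15% of all genes, with a median of 0.21 (all genes near 0). RFC3 stood at 79.1, 79.6 and 83.2 CPM in KO GSI, against 50.7, 54.2 and 51.5 CPM in NT GSI (log2 0.63 ± 0.04, adjusted p = 1.45e-08). RPA3, the smallest RPA subunit, stood at 58.8, 62.7 and 66.2 CPM in KO GSI, against 48.3, 51.01 and 43.5 CPM in NT GSI (log2 0.40 ± 0.07, adjusted p = 0.000208). The groups were apart in both genes. The lower members were CDT1, POLD1, POLE and POLE2, with POLE at 364, 371 and 371 CPM in KO GSI, against 535, 423 and 545 CPM in NT GSI (log2 -0.44 ± 0.09, adjusted p = 0.00105). The call of POLD1 was lost without NT GSI replicate 3 (log2 -0.18, adjusted p = 0.222) or KO GSI replicate 1 (adjusted p = 0.117). RFC3 was thus higher in KO cells under each treatment and POLE2 lower under DMSO and GSI. Of the 38 other replication genes, 7 were higher and 5 lower in KO cells under DMSO, 20 and 5 under CB-103, and 15 and 7 under GSI. As shares these are 18.4% and 13.2% under DMSO, beside 9.78% and 11.7% of all genes. Under CB-103 they are 52.6% and 13.2%, beside 20.4% and 16.5%. Under GSI they are 39.5% and 18.4%, beside 18.8% and 15%. MCM9, a relative of the MCM2-7 genes that acts in repair, was lower under each, with log2 differences of -0.63 ± 0.10, -0.54 ± 0.10 and -0.80 ± 0.10 for DMSO, CB-103 and GSI.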

How the data were processed

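Polyadenylated RNA was sequenced as paired reads of 75 nt from 18 libraries, 3 for each of 6 groups, per the labels' protocols. Salmon 1.4.0, HISAT2 2.2.1, FastQC 0.11.9 and bcl2fastq 2.20 are listed with hg38 in the submitters' processing notes. The authors deposited a table of estimated counts per gene and Salmon files with expected counts and TPM per transcript. The sources used here do not state how transcripts were summed to genes or whether strand was used. The total of a library in the gene table differs from its total over transcripts by at most 450 reads. This holds for totals only, and values of single genes can differ by more.

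The estimated counts were rounded and tested with edgeR 4.0.16 (R 4.3.3). Genes passed filterByExpr (17346 of 58735), libraries were scaled by TMM (factors 0.954 to 1.03), and a quasi-likelihood F test with 1 mean per group used all 18 libraries (12 residual degrees of freedom). Common biological variation was 0.0965. P-values were adjusted by Benjamini-Hochberg over all tested genes, and an adjusted p under 0.05 was called. The 9 comparisons and 2 differences of responses were fitted in the same model. The test was also run on simulated counts with known changes in few genes of 1 group and no replicate effect. That run cannot speak to the replicate effects or the widespread changes under CB-103 in these data. CPM values use the scaled library totals, and the deposited TPM were summed per gene with GENCODE 29. Errors on log2 values are SE, those on levels SD.

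The members and gene lists were chosen with earlier results of these data known. All 40 members are accounted for by role. Values per library are given for the 2 members of each role with the largest called change under CB-103 in NT cells, for members called against the direction of most, and for the 3 largest in every other comparison. Alternatives were DESeq2 1.42.0 (size factors, Wald test), limma 3.58.1 (voom), other scaling, filter and fit, transcript sums, replicates 2 and 3 only, a replicate block, and leaving out each library.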

Additional observations from a re-analysis of the deposited data

Results flagged for a closer look

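The difference between the KO and NT responses to CB-103, as a log2 value (KO minus NT), passed an adjusted p of 0.05 in edgeR's test of the difference itself for 22 members. Among the MCM2-7 genes it was 0.72 for MCM2, 0.39 for MCM3, 0.36 for MCM6 and 0.38 for MCM7. Among the clamp genes it was 0.74 for PCNA, 0.72 for DSCC1, 0.36 for RFC2, 0.27 for RFC3 and 0.20 for RFC5. The cyclin E kinase genes CCNE2 and CDK2 differed by 0.71 and 0.29. Of the licensing genes, CDT1 differed by 0.44, ORC1 by 0.29 and CDC6 by -0.55. Of the helicase activation genes, GINS2 differed by 0.66, GINS1 by 0.26 and MCM10 by 0.21. The polymerase and primase genes POLE2 and PRIM1 differed by 0.36 and 0.32, the lagging-strand genes LIG1 and RPA3 by 0.37 and 0.48, and the histone chaperone gene CHAF1B by 0.31. For the response to GSI, CDT1 differed by -0.57 and RPA2 by 0.29.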

How the results depend on the processing

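Each fold change and difference of the 39 members was recomputed under 9 alternatives and without each library, 6903 values in all. Of these 6516 kept their call or lack of call, 218 lost and 169 gained one, and none reversed. Against DMSO, all 30 CB-103 calls in KO cells and 35 of 36 in NT cells held throughout, as did 31 of 34 (KO) and 33 of 34 (NT) against GSI, 26 of 31 between genotypes under CB-103 and 14 of 22 for the difference of responses. For the other comparisons 3 of 11 held for GSI in KO cells, 4 of 8 for GSI in NT cells, 6 of 12 between genotypes under DMSO, 19 of 26 under GSI, and 0 of 2 for the difference of GSI responses. Members higher in KO than NT cells under DMSO were 19 with library totals only and 6 with replicates 2 and 3 only, against 10. Members higher under GSI in KO cells were 2 with no count filter, against 7. Members lower there were 2 with DESeq2 size factors, with the DESeq2 Wald test and with replicates 2 and 3 only, against 4. Members lower in KO than NT cells under GSI were 2 with gene sums of transcript estimates, against 4. Members with a positive difference of GSI responses were 0 with DESeq2 size factors, library totals only, no count filter or replicates 2 and 3 only, 2 with the replicate block, transcript sums or only the groups compared, and 4 with the Wald test, against 1. Members with a negative one were 3 with the Wald test, no count filter or the replicate block, and 0 with transcript sums or replicates 2 and 3 only, against 1. The cause of these changes was not tested. Without 1 library at a time, positive differences of GSI responses ranged from 0 to 6 and negative ones from 0 to 2, with 6 and 2 without NT GSI replicate 2. Members higher in KO than NT cells under DMSO ranged from 4 to 10, with 4 without NT DMSO replicate 3, 5 without KO DMSO replicate 1 and 6 without KO DMSO replicate 3. Members higher under GSI in KO cells ranged from 3 to 7 and those lower from 1 to 2, and members lower under GSI in NT cells from 3 to 7, with 3 without NT DMSO replicate 1. The labels give no shared origin for a replicate number, and not every same-numbered pair deviated together, so the block was not used above. Over all genes the deviations correlated at 0.26 to 0.35 for replicate 1, -0.071 to 0.17 for replicate 2 and 0.047 to 0.15 for replicate 3. Over the members they correlated at 0.11 to 0.75 for replicate 1, -0.50 to 0.43 for replicate 2 and -0.043 to 0.71 for replicate 3. The members' medians were 0.50, 0.072 and 0.30, so the members of replicate 1 did deviate together. With the replicate number as a block, 10 members were lower under GSI in NT cells, against 6. The doses, the strand used in counting and the origin of the replicates limit these values, and CCNE1, at 0 to 8 reads per library, is too low for a comparison.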
